A study of Mus musculus with 12 samples.

Results

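The urokinase system was followed in mouse bone marrow-derived macrophages through 4 genes: Plau (ENSMUSG00000021822, chromosome 14), Plaur (ENSMUSG00000046223, chromosome 7), Plat (ENSMUSG00000031538, chromosome 8) and Serpinb2 (ENSMUSG00000062345, chromosome 1). They were taken by symbol from 37620 gene identifiers in the count table, and each symbol matched 1 identifier. The 12 libraries came from C57BL/6 primary cultures at day 7 and form 4 groups of 3. The hypoxia-lactate cells were kept in 1% oxygen with 25 mM sodium lactate, the hypoxia-NaCl cells in 1% oxygen with 25 mM NaCl, the normoxia-lactate cells in normoxia with 25 mM sodium lactate, and the normoxia-NaCl cells in normoxia with 25 mM NaCl, the salt control. The labels state neither the exposure time nor whether libraries with the same label had different mice or dishes as their source. P-values therefore reflect library-to-library spread alone, part of which may be technical. The genes were chosen by symbol, with their fold changes between these groups already known. Their levels, fold changes and adjusted p-values below describe what the fit over all genes gave for them, and they support nothing further.

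Urokinase, the product of Plau, is a secreted serine protease that cleaves plasminogen to the broad protease plasmin. Plaur encodes its receptor (uPAR), which holds the enzyme at the cell surface, so that plasmin forms where the cell touches matrix or fibrin. Plat encodes tissue-type plasminogen activator, which also cleaves plasminogen, mainly where it is bound to fibrin. Serpinb2 encodes plasminogen activator inhibitor 2, a serpin that macrophages make and largely keep inside the cell. In macrophages the system is known for its part in migration through tissue and in fibrin clearance.

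Of the 4 genes, 2 had a promoter in the RefSeq table used here (GRCm38.p6). The sequences are shown because both Plaur and Serpinb2 are textbook genes of AP-1, the Fos and Jun transcription factor family, and members of that family were measured in the same libraries. Each run covers the 250 bases before the annotated start on the plus strand, at chr7:24462233-24462482 for Plaur and chr1:107511173-107511422 for the first of the starts listed for Serpinb2. Capitals mark matches to the AP-1 motif TGANTCA and to TATAAA, searched on both strands.
Plaur: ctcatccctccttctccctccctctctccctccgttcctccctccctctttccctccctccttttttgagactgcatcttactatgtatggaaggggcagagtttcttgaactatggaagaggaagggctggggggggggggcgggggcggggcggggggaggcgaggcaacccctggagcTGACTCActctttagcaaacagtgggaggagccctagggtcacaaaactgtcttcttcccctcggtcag
Serpinb2: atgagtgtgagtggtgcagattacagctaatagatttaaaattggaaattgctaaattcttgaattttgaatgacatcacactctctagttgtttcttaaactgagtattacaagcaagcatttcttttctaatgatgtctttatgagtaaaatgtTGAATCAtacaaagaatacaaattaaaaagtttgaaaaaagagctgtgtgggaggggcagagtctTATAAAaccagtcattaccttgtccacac
The Plaur window held 1 AP-1 match, 62 bases before the start, and the Serpinb2 window held 1, 87 bases before it. The motif occurs in 6.75% of the 32851 promoter windows of this length in the table. The TATAAA match of Serpinb2 lies 23 bases before the start, and TATAAA occurs in 12.4% of the windows. Neither window held the hypoxia response core ACGTG or GCGTG, which 38.6% of the windows hold. These are matches of letters and not shown binding sites.

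Gene-assigned depth ran between 22705978 and 49885085 reads a library. All 8 macrophage markers were detected, with summed levels of 33206 to 48924 CPM (CPM is a count scaled to the library's TMM-adjusted total) over the 12 libraries. Lyz2 made up most of the sum. In hypoxia-lactate against normoxia-NaCl, the means of Mertk (9.99 against 29.6 CPM), Fcgr1 (10.8 against 22.2 CPM), Adgre1 and Cd68 were lower. Those of Lyz2, Csf1r, Itgam and Cd14 were higher. Library hypoxia-lactate 3 stood apart, with 11437 genes at 10 or more counts against 13198 to 14767 in the others and 0.486% of its counts mitochondrially encoded against 2.04% to 4.75%, so results that rest on it are also given without it. Library normoxia-NaCl 1 was next, with the highest mitochondrial share (4.75%), the highest share of reads not uniquely aligned (18.4%) and a median Spearman correlation with the other libraries of 0.963, against 0.922 in hypoxia-lactate 3, and it had the lowest Plau level of its group. The oxygen labels were checked on known targets of hypoxia-inducible factor. Of 10 listed, 9 rose in hypoxia-lactate against normoxia-NaCl (1.61% of all tested genes called). In each comparison of 1% oxygen with normoxia in the same medium 8 rose (0.281% of all tested genes called in NaCl, 0.226% in lactate). Car9 went the other way and was not called. Its log2 fold change was -1.35 in hypoxia-lactate against normoxia-NaCl (edgeR BH-adjusted p = 0.184), -0.96 for low oxygen in NaCl and -0.69 in lactate. The list was chosen with earlier results of these data known.

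Plau was lowest in the cells that had both low oxygen and lactate. It had 0.413, 2.18 and 0.356 CPM in hypoxia-lactate libraries 1 to 3, which rest on 12, 58 and 6 reads. It had 4.08, 4.97 and 9.90 CPM in hypoxia-NaCl, 4.95, 12.2 and 4.67 CPM in normoxia-lactate, and 6.08, 34.9 and 17.2 CPM in normoxia-NaCl. All 3 hypoxia-lactate libraries lay below all 9 others, as they did for 3.64% of the 14616 genes tested. The other 3 groups overlapped one another.

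**Figure D1:**
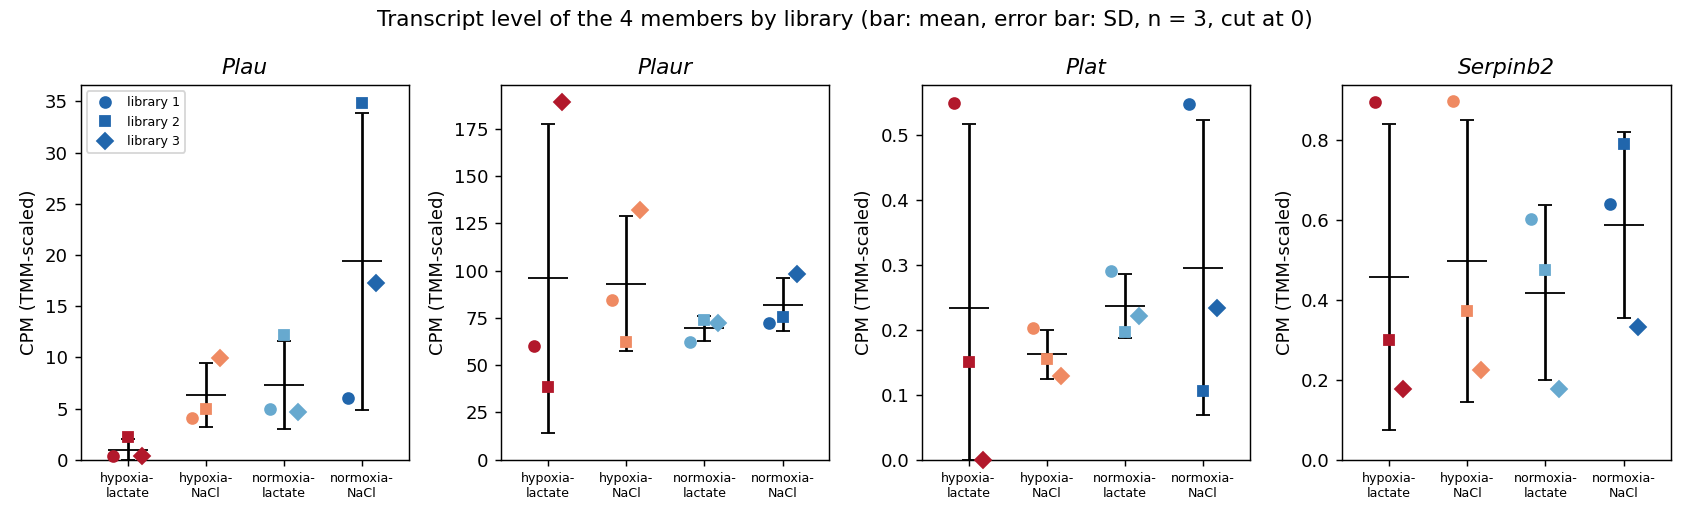
CPM (linear axis from 0, a scale of its own for each gene) of Plau, Plaur, Plat and Serpinb2 in the 12 libraries; symbols are single libraries, the bar is the group mean and the error bar the SD (n = 3). Plau in hypoxia-lactate reaches 2.18 CPM at most, below the lowest value elsewhere of 4.08 CPM, while the groups of the other 3 genes overlap.

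Against the salt control in normoxia, Plau averaged 0.982 ± 1.03 CPM in hypoxia-lactate and 19.4 ± 14.5 CPM in normoxia-NaCl (SD, n = 3 each). The log2 fold change was -4.28 ± 0.84 (SE), with a 95% interval of -6.09 to -2.46 and an edgeR BH-adjusted p of 0.0256. Plau was the 1 of 3 tested members called in this comparison, where 1.61% of all tested genes were called, 1.17% higher and 0.438% lower. All libraries of hypoxia-lactate lay below all of normoxia-NaCl for 11.2% of tested genes. It ranked 7 by size of fall among the 64 genes called lower, whose median was -1.51 on the log2 scale. The value did not rest on the library that stood apart: without hypoxia-lactate 3 it was -3.92 ± 0.84, with an adjusted p of 0.0170. The call was lost without hypoxia-lactate 1 (-3.89, adjusted p = 0.0552), without normoxia-NaCl 2 (-3.56, 0.0885), which had the highest Plau level, and without normoxia-NaCl 3 (-4.37, 0.0677), and it was lost when only these groups were fitted (adjusted p = 0.293). Without hypoxia-lactate 2, which held most of the group's Plau reads, the value was -5.63.

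Each condition on its own gave a lower Plau mean that did not pass the threshold. In NaCl medium, low oxygen gave 6.32 ± 3.14 CPM in hypoxia-NaCl against 19.4 ± 14.5 CPM in normoxia-NaCl, a log2 fold change of -1.62 ± 0.74 (edgeR BH-adjusted p = 0.761). Lactate in normoxia gave 7.28 ± 4.27 CPM in normoxia-lactate against the same control, a log2 fold change of -1.41 ± 0.73 (adjusted p = 1.00). These comparisons share the normoxia-NaCl libraries, whose own Plau values span 6.08 to 34.9 CPM, and in both the libraries overlapped. Same-numbered libraries of hypoxia-NaCl and normoxia-NaCl deviated together weakly across genes (correlations of 0.138 to 0.315), but the labels name no pairs. Matched by number, Plau was lower in hypoxia-NaCl each time (4.08 against 6.08, 4.97 against 34.9 and 9.90 against 17.2 CPM). With the library number as a block the log2 fold change was -1.24 (adjusted p = 0.687). Plau was also lower in normoxia-lactate in each such match (4.95 against 6.08, 12.2 against 34.9 and 4.67 against 17.2 CPM). The share of all tested genes that were lower in every match was not counted, so these matches have no background. Of all tested genes, 0.281% were called for low oxygen and 0% for lactate. For lactate, 227 genes had an unadjusted p under 0.05, DESeq2 called 9 and limma-voom with quality weights 11. With quality weights Plau was called lower for low oxygen (-2.10, adjusted p = 0.00835), where 3.59% of all tested genes were called.

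The second condition on top of the first was accompanied by lower values still, without overlap. Low oxygen in lactate medium gave 0.982 ± 1.03 CPM in hypoxia-lactate against 7.28 ± 4.27 CPM in normoxia-lactate, a log2 fold change of -2.86 ± 0.79 with a 95% interval of -4.58 to -1.14 (edgeR BH-adjusted p = 0.210; 0.226% of tested genes called). Lactate in low oxygen gave the same hypoxia-lactate mean against 6.32 ± 3.14 CPM in hypoxia-NaCl, and the log2 fold change was -2.65 ± 0.79 with a 95% interval of -4.37 to -0.94 (adjusted p = 0.432; 0% called, with 1664 genes at an unadjusted p under 0.05). In these 2 comparisons 11.3% and 9.30% of tested genes had all libraries of the first group below all of the second. Without hypoxia-lactate 3 the value for low oxygen in lactate was -2.50 ± 0.80 (edgeR BH-adjusted p = 0.182). For lactate in low oxygen, leaving out each library in turn gave -4.00 to -2.18. DESeq2 called Plau lower in both (adjusted p = 0.00851 and 0.0474), where it called 2.99% and 0.766% of all tested genes, and quality weights called 5.04% and 0.109%, Plau not among them.

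The sum of the separate changes can be set against the joint one through the interaction, the lactate change in low oxygen minus that in normoxia. For Plau it was -1.24 ± 1.04 on the log2 scale, with a 95% interval of -3.50 to 1.02 (edgeR BH-adjusted p = 0.902). The interval spans a joint fall smaller than the sum by up to 1.02 log2 units, changes that add up, and a further fall of more than 3 log2 units. Leaving out each library in turn gave -2.58 to -0.66. edgeR called 0 of 14616 genes for the interaction, with 497 at an unadjusted p under 0.05, DESeq2 called 1 and limma-voom with quality weights 2.

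**Figure D2:**
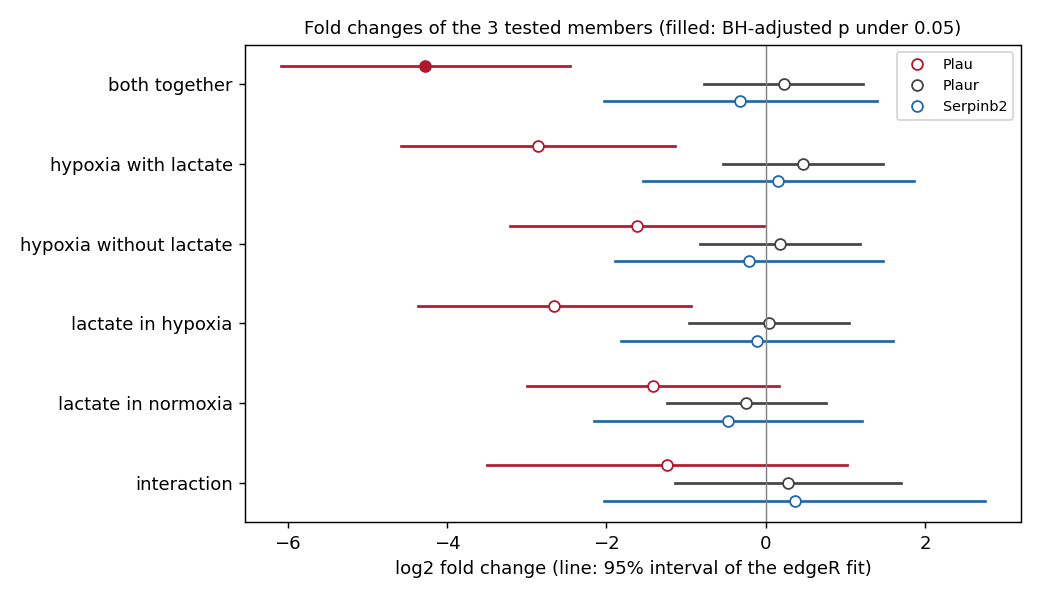
Log2 fold changes (points) with 95% intervals (lines) of Plau, Plaur and Serpinb2 in 6 comparisons; both together is hypoxia-lactate over normoxia-NaCl, and a filled point passed a BH-adjusted p of 0.05. Plau is negative in each comparison and filled in 1 (-4.28), while the intervals of Plaur and Serpinb2 span 0 in all 6.

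**Figure D3:**
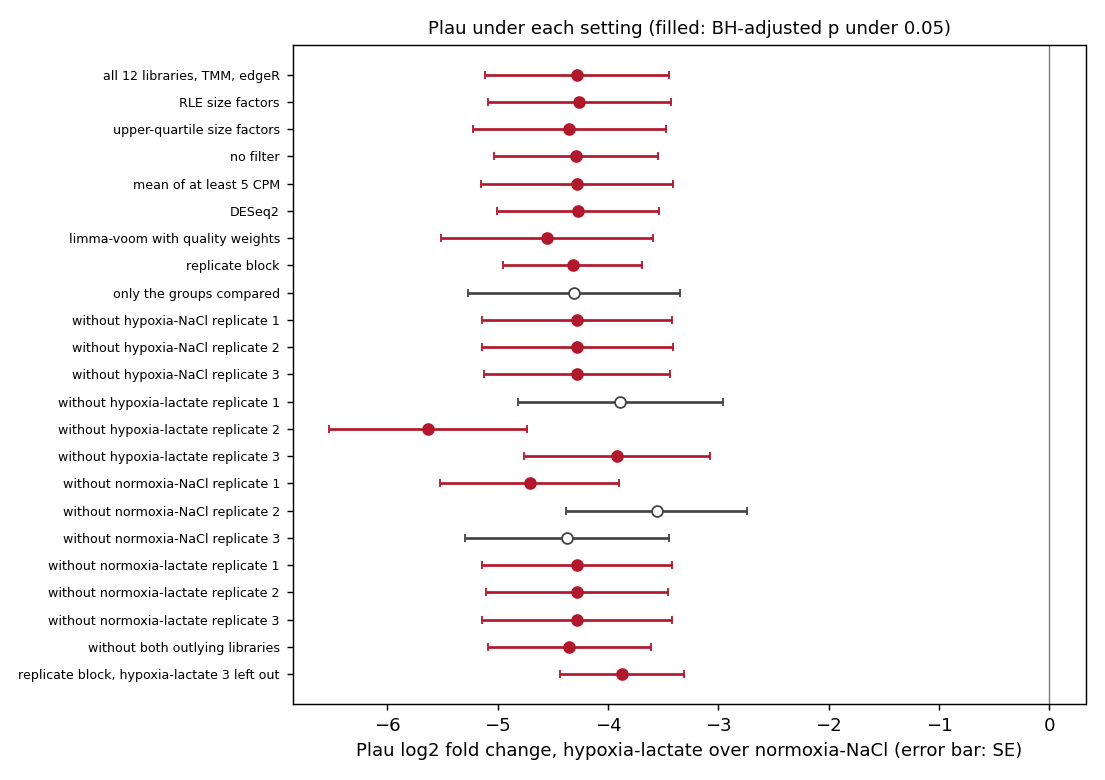
Log2 fold change of Plau (x axis, with SE) in hypoxia-lactate over normoxia-NaCl for the fit over all 12 libraries and each alternative; filled points passed a BH-adjusted p of 0.05. All values lie between -5.63 and -3.56, and 4 of the 22 alternatives lost the call.

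Markers of other cells were read in the same libraries. The summed osteoclast-type markers, led by Ctsk, were 385 to 778 CPM in hypoxia-lactate, 267 to 322 CPM in hypoxia-NaCl, 256 to 300 CPM in normoxia-lactate and 190 to 261 CPM in normoxia-NaCl, with 5 of 6 markers tested and Calcr at 0 in every library. The hypoxia-lactate sums lay above all others, and those of hypoxia-NaCl and normoxia-lactate overlapped. Ctsk made up most of the difference, averaging 355 CPM in hypoxia-lactate and 70.5 CPM in normoxia-NaCl. Dcstamp (38.4 and 15.5 CPM) and Acp5 (54.9 and 36.0 CPM) also had higher means in hypoxia-lactate. Nfatc1 averaged 89.1 and 98.8 CPM and Ocstamp 1.08 and 1.36 CPM in the same groups. No test of the sum was made. Neutrophil markers summed to 2.92 to 35.5 CPM in hypoxia-lactate and 2.80 to 52.3 CPM in normoxia-NaCl (8 of 9 tested), and fibroblast markers to 54.9 to 111 CPM and 43.0 to 107 CPM (6 of 8 tested), overlapping in both cases. Lymphocyte markers did not exceed 0.435 CPM in sum in any library. The part of these cell types in the Plau values was not tested. In bulk RNA, fewer cells of a type and less RNA per cell cannot be told apart.

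Plaur, the receptor, was the most abundant member in every group, and no comparison called it. It had 60.0, 38.3 and 189 CPM in hypoxia-lactate libraries 1 to 3 and 84.5, 62.4 and 132 CPM in hypoxia-NaCl. It had 62.0, 73.8 and 72.4 CPM in normoxia-lactate and 72.4, 75.5 and 98.0 CPM in normoxia-NaCl. The normoxic libraries lay close together and the hypoxic ones spread widely on both sides of them, with the highest value in hypoxia-lactate 3.

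The fold changes of Plaur were small against that spread. The log2 fold change was 0.22 ± 0.46 for hypoxia-lactate over normoxia-NaCl, with a 95% interval of -0.78 to 1.23 (edgeR BH-adjusted p = 0.824). It was 0.18 ± 0.46 for low oxygen in NaCl (interval -0.82 to 1.18), 0.46 ± 0.46 for low oxygen in lactate (-0.54 to 1.47), -0.24 ± 0.46 for lactate in normoxia (-1.24 to 0.76) and 0.04 ± 0.46 for lactate in low oxygen (-0.96 to 1.04). All of these intervals hold 0. Without hypoxia-lactate 3 the values that use that group turned negative: -0.74 against normoxia-NaCl (adjusted p = 0.119), -0.50 against normoxia-lactate (0.440) and -0.92 against hypoxia-NaCl (0.354). The sign for low oxygen in NaCl turned without hypoxia-NaCl 3 (-0.16), and that for lactate in low oxygen also with upper-quartile scaling (-0.23). No direction is given for Plaur.

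Set side by side per length, receptor transcripts exceeded those of the protease in each library. On the scale of CPM per kilobase of exon, Plaur averaged 36.6 ± 31.2 in hypoxia-lactate, 35.5 ± 13.6 in hypoxia-NaCl, 26.5 ± 2.45 in normoxia-lactate and 31.3 ± 5.35 in normoxia-NaCl (SD, n = 3 each). Plau averaged 0.415 ± 0.437, 2.67 ± 1.33, 3.07 ± 1.81 and 8.19 ± 6.13 CPM per kilobase in the same groups. The ratio of Plaur to Plau on this scale was 132, 15.9 and 481 in hypoxia-lactate libraries 1 to 3, 18.7, 11.4 and 12.1 in hypoxia-NaCl, 11.3, 5.46 and 14.0 in normoxia-lactate, and 10.8, 1.96 and 5.15 in normoxia-NaCl. Hypoxia-lactate 2 lay within the range of the hypoxia-NaCl libraries, and the other hypoxia-lactate libraries lay far above every other library. By mean level per kilobase, Plaur exceeded 87.1% to 90.4% of the tested genes in the 4 groups, and Plau exceeded 15.1% in hypoxia-lactate and 64.7% in normoxia-NaCl.

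Plat, the tissue-type activator, was at the edge of detection. It had 16, 4 and 0 reads in hypoxia-lactate libraries 1 to 3, 10, 5 and 4 in hypoxia-NaCl, 14, 10 and 10 in normoxia-lactate, and 12, 4 and 12 in normoxia-NaCl. In CPM these are 0 to 0.550 in hypoxia-lactate, 0.129 to 0.204 in hypoxia-NaCl, 0.198 to 0.291 in normoxia-lactate and 0.105 to 0.548 in normoxia-NaCl, and the groups overlap. The count of 0 in hypoxia-lactate 3 allows a level of up to 0.178 CPM (3 counts, counting error only). Plat did not pass the filter on low counts, so it entered no test. With no filter its log2 fold change was -0.23 ± 1.03 for hypoxia-lactate over normoxia-NaCl (edgeR BH-adjusted p = 0.998), and a difference was not detectable at this depth.

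Serpinb2, the inhibitor, was low as well and passed the filter. It had 26, 8 and 3 reads in hypoxia-lactate libraries 1 to 3, 44, 12 and 7 in hypoxia-NaCl, 29, 24 and 8 in normoxia-lactate, and 14, 30 and 17 in normoxia-NaCl. It averaged 0.458 ± 0.383 CPM in hypoxia-lactate, 0.498 ± 0.353 CPM in hypoxia-NaCl, 0.419 ± 0.218 CPM in normoxia-lactate and 0.587 ± 0.233 CPM in normoxia-NaCl (SD, n = 3 each). The spread inside each group was larger than the differences between the means. The log2 fold change was -0.32 ± 0.79 for hypoxia-lactate over normoxia-NaCl, with a 95% interval of -2.03 to 1.39 (edgeR BH-adjusted p = 0.855), and -0.48 to 0.16 in the other comparisons of 2 groups, with adjusted p from 0.938 to 1.00. Its sign turned when 1 library was left out in 5 of the 6 comparisons, the interaction included, and without hypoxia-lactate 3 the first value was 0.04 (adjusted p = 0.979). In the GENCODE M21 annotation Serpinb2 shares exon bases with Serpinb10, so part of its reads may have been set aside as ambiguous, and the other 3 members overlap no annotated gene.

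The profile of Plau over the 12 libraries was most like those of Mrc1, Lgals9 and Wfdc17 among 9211 genes of at least 5 CPM. Likeness was the root-mean-square difference of log2 CPM after each gene's own mean was taken off: 0.85 log2 units for Mrc1, 1.06 for Lgals9 and 1.07 for Wfdc17, against a median of 1.86 over the genes compared. Mrc1, the mannose receptor CD206 and a marker of alternative activation, averaged 3.41 ± 2.34 CPM in hypoxia-lactate, 9.81 ± 3.17 CPM in hypoxia-NaCl, 11.9 ± 1.60 CPM in normoxia-lactate and 23.4 ± 2.68 CPM in normoxia-NaCl (SD, n = 3 each). Lgals9, which encodes galectin-9, averaged 9.75 ± 2.72, 25.0 ± 2.59, 27.0 ± 5.14 and 46.1 ± 8.77 CPM in the same groups. Wfdc17, a small secreted whey acidic protein-domain gene, averaged 1.87 ± 0.709, 6.45 ± 2.29, 7.04 ± 0.947 and 10.2 ± 3.33 CPM. All of them had their lowest group mean in hypoxia-lactate and their highest in normoxia-NaCl, with intermediate means in the single conditions. They were picked for likeness to Plau over these same libraries, so a shared order follows from the choice and is no separate result.

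**Figure D4:**
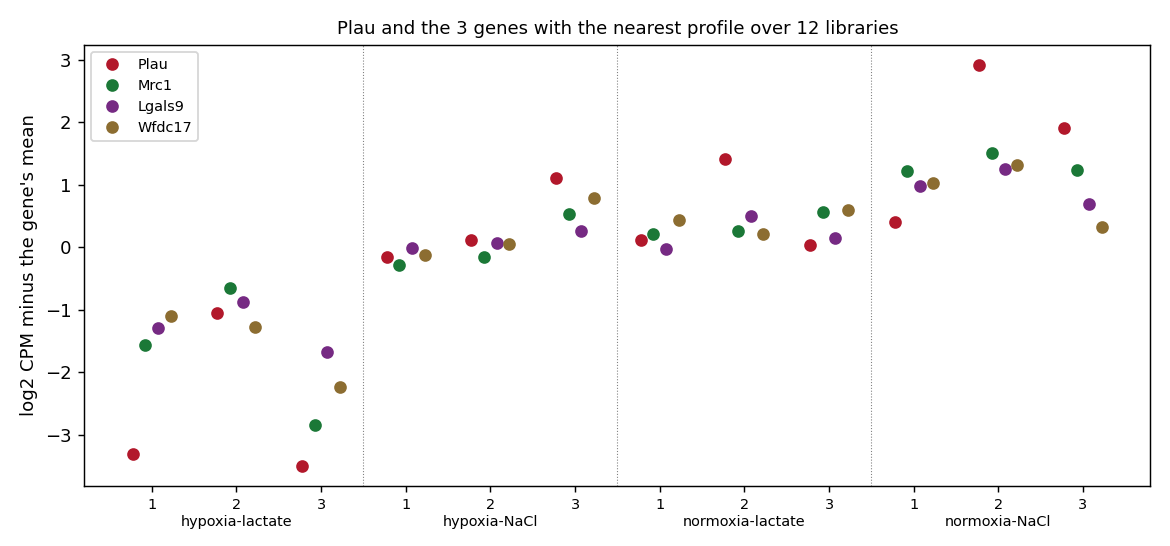
Log2 CPM minus the gene's own mean (y axis) in each of the 12 libraries (x axis, numbered within groups) for Plau and the 3 genes nearest to it, Mrc1, Lgals9 and Wfdc17. The hypoxia-lactate points of all 4 genes lie lowest, and Plau spreads more within groups than the other 3.

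For Plaur the nearest genes were Isoc2b (0.21 log2 units), Mndal (0.23) and Anxa3 (0.23), against a median of 0.63. They shared its wide spread in hypoxia-lactate: Anxa3, an annexin, had 58.3 ± 53.3 CPM there and 50.3 ± 5.54 CPM in normoxia-NaCl. For Serpinb2 they were Serpinh1 (0.35), a collagen chaperone, Mcm7 (0.42), a subunit of the replicative helicase, and Hspg2 (0.45), the proteoglycan perlecan, against a median of 0.81. At the few reads of Serpinb2, part of its profile is counting error.

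The other genes of the system were read from lists chosen with earlier results of these data known, and edgeR with all libraries called genes of them, apart from the hypoxia-inducible factor targets, in hypoxia-lactate against normoxia-NaCl alone. There it called 1.17% of all tested genes higher and 0.438% lower. Of 6 tested serpins and other inhibitors (12 listed), 1 rose: Serpinb9, a granzyme B inhibitor, with 33.1 ± 12.3 CPM in hypoxia-lactate and 11.5 ± 3.19 CPM in normoxia-NaCl, a log2 fold change of 1.52 ± 0.33 (edgeR BH-adjusted p = 0.0418). Plasminogen itself (Plg) had at most 1 read in any library; the liver is its main source in the body. Of 5 tested genes for plasminogen and its binding proteins (7 listed), 1 rose: Eno1, the glycolytic enzyme enolase, which also binds plasminogen at the cell surface, with 2815 ± 1959 CPM in hypoxia-lactate and 656 ± 190 CPM in normoxia-NaCl (2.10 ± 0.42, adjusted p = 0.0260). Eno1 has near-identical copies, so its count is uncertain. The medians of these lists were 0.15 and 0.69 on the log2 scale, against -0.01 over all tested genes.

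None of 16 tested receptor partners and clearance receptors (17 listed) was called by edgeR with all libraries in any comparison. In hypoxia-lactate against normoxia-NaCl their median was 0.56, 8 had an unadjusted p under 0.05, DESeq2 called 3 higher (Vldlr, Itgb1 and Itgam) and quality weights 1 (Vldlr), where they called 9.92% and 7.38% of all tested genes. The most abundant were Lrp1, the receptor that takes up urokinase-inhibitor complexes, with 6914 ± 1918 CPM in hypoxia-lactate and 4499 ± 658 CPM in normoxia-NaCl (0.62 ± 0.26, edgeR BH-adjusted p = 0.207), and Itgb2, the beta chain of the Mac-1 integrin that partners uPAR, with 1761 ± 522 CPM and 1983 ± 374 CPM (-0.17 ± 0.24, adjusted p = 0.728). Of 14 tested plasmin substrates and proteases downstream of it (17 listed), 1 rose and none fell, with a median of -0.40: Mmp13, a collagenase, with 96.6 ± 80.2 CPM in hypoxia-lactate and 8.72 ± 3.63 CPM in normoxia-NaCl (3.46 ± 0.66, adjusted p = 0.0214). Of 7 coagulation genes, all tested, 1 rose, with a median of -0.05: Procr, the protein C receptor, with 169 ± 31.6 CPM and 78.3 ± 11.8 CPM (1.11 ± 0.20, adjusted p = 0.0166). Of all tested genes, edgeR called 1.17% higher and 0.438% lower in this comparison. DESeq2 called 4 of the substrates or proteases higher (Fn1, F13a1, Mmp12 and Mmp13) and 2 lower (Mmp14 and St14). It called 3 coagulation genes and 2 serpins higher. Of the plasminogen-binding genes it called 2 higher and 1 lower, where it called 9.92% of all tested genes.

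Of 16 transcription factors known to act on these genes, all tested, 2 rose and none fell in hypoxia-lactate against normoxia-NaCl, with a median of 0.41. Of all tested genes, edgeR called 1.17% higher and 0.438% lower there. Fosl2, an AP-1 subunit of the kind that binds the motif shown for Plaur and Serpinb2, had 166 ± 22.8 CPM in hypoxia-lactate and 74.9 ± 14.0 CPM in normoxia-NaCl (1.15 ± 0.19, edgeR BH-adjusted p = 0.0122). Ets2, an ETS factor, had 66.8 ± 10.4 CPM and 20.9 ± 3.94 CPM (1.68 ± 0.38, adjusted p = 0.0477). DESeq2 called 4 of the factors higher (Fosl2, Ets2, Ets1 and Jun), where it called 9.92% of all tested genes.

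The list counts moved with the libraries used. In hypoxia-lactate against normoxia-NaCl without hypoxia-lactate 3, where 6.86% of all tested genes were called, 4 of the transcription factors rose (Fosl2, Ets2, Jun and Hif1a), 2 serpins rose and 1 fell, 1 plasminogen-binding gene rose and 1 fell, 1 receptor rose, 1 coagulation gene rose, and 3 plasmin substrates or proteases (Fn1, F13a1 and Mmp13) rose and 1 (St14) fell. Without both that library and normoxia-NaCl 1, where 5.98% of all tested genes were called, the counts were 3 factors, 2 serpins, 2 plasminogen-binding genes, 1 receptor, 2 coagulation genes and 2 substrates or proteases higher, with 1 plasminogen-binding gene and 1 substrate or protease lower. Without hypoxia-lactate 3 other comparisons also called list genes. Low oxygen in NaCl (1.79% of all tested genes called) had Serpini1, Anxa2, Eno1, Mmp13 and Fosl2 higher and St14 lower, low oxygen in lactate (0.862%) had Eno1 higher and St14 lower, and lactate in low oxygen (0.0398%) had Procr higher.

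Of the single calls in these lists, each was lost when only the 2 groups were fitted (adjusted p = 0.134 to 0.410). Those of Serpinb9 and Ets2 were also lost with upper-quartile scaling (0.0743 and 0.0730). Serpinb9 kept its call only without hypoxia-lactate 1 or hypoxia-lactate 3, and without each of the other libraries in turn its adjusted p was 0.0556 to 0.166. Ets2 kept its call only without hypoxia-NaCl 3 or hypoxia-lactate 3, and was at 0.0512 to 0.144 otherwise. Eno1 lost its call without hypoxia-NaCl 2 (0.0508), normoxia-NaCl 1, 2 or 3 (0.0739, 0.110 and 0.106) or normoxia-lactate 1 (0.0511). Mmp13 lost it without normoxia-NaCl 1, 2 or 3 (0.122, 0.0791 and 0.0847), Procr without normoxia-NaCl 1 or 2 (0.0739 and 0.0859), and Fosl2 without normoxia-NaCl 1 or 3 (0.0507 and 0.0519). Without hypoxia-lactate 3 each kept its call, but the log2 fold changes of Eno1 and Mmp13 shrank to 1.36 and 2.51. Those of Procr, Fosl2, Serpinb9 and Ets2 were then 0.95, 1.04, 1.70 and 1.80.

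**Figure D5:**
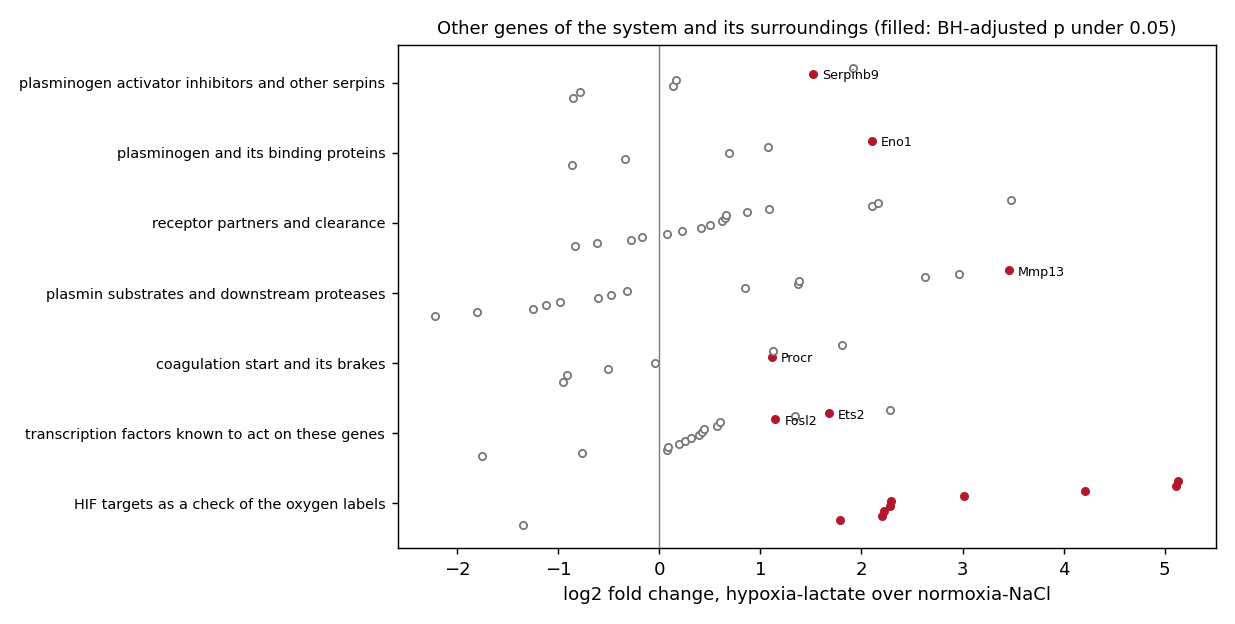
Log2 fold change in hypoxia-lactate over normoxia-NaCl (x axis) of each tested gene of 7 lists (rows; points are spread vertically for legibility); filled points passed a BH-adjusted p of 0.05. Outside the hypoxia-inducible factor targets 6 genes are filled, all to the right of 0: Serpinb9, Eno1, Mmp13, Procr, Fosl2 and Ets2.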

How the data were processed

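RNA from 12 libraries was selected by poly(A) and sequenced on an Ion Proton instrument, per the labels' protocols. The authors deposited raw read counts per Ensembl gene; BWA, HTSeq and mm9 are named in the submitters' processing notes. The annotation release and strand setting: not given in the sources used here. A further 5 counters that name no gene (8.34% to 18.4% of reads not uniquely aligned, 13.7% to 22.0% outside genes, 0.361% to 0.442% ambiguous, 2.02% to 5.48% not aligned, 0% of low quality) stayed out of library sizes and tests. Symbols and exon lengths came from GENCODE M21 (GRCm38), matched by identifier (32897 of 37620 had a symbol); promoters came from RefSeq GRCm38.p6, and no gene coordinates were used with the counts.

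One edgeR 4.0.16 fit (quasi-likelihood F test, TMM, filterByExpr, R 4.3.3) covered all 12 libraries with a mean per group. P-values were BH-adjusted over 14616 genes, with a threshold of 0.05. SEs were computed back from the F test and 95% intervals use its degrees of freedom. The fit was first tested on simulated counts with genes changed in the hypoxia groups alone, so that test does not bear on the lactate comparisons or the interaction. It recovered 54% to 58.5% of 200 changed genes, with 5 to 6 false calls a comparison, so many changed genes were missed. Members and lists were chosen with earlier results of these data known. Named genes are the members, list genes called in any comparison (at most 4 a list, otherwise the 2 most abundant) and the 3 nearest profiles of each tested member. The 4 hypoxia-inducible factor targets named by this rule are given as counts. Jun, Hif1a, Ets1, Vldlr, Itgb1, Itgam, Fn1, F13a1, Mmp12, Mmp14, St14, Serpini1, Anxa2 and the marker genes were named after their values were seen. List counts without outlying libraries or by another tool were also added after the data were seen. Alternatives were RLE and upper-quartile scaling, no filter, a mean of at least 5 CPM, DESeq2 1.42.0, limma-voom 3.58.1 with quality weights, the library number as a block, only the groups compared, and leaving out libraries. Same-numbered libraries deviated together in hypoxia-NaCl against normoxia-NaCl (correlations of 0.138 to 0.315, all above 0.1), which was taken as pairing there. Elsewhere at least 1 correlation was at or below 0.1, as for lactate in normoxia (0.025, 0.206 and 0.239). The labels name no pairs, and differently numbered libraries were not compared, so the pairing is an assumption.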

Additional observations from a re-analysis of the deposited data

How the results depend on the processing

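With all libraries 1 member, Plau, was called, in hypoxia-lactate against normoxia-NaCl. The count was 0 to 1 when each library was left out in turn, with Plau at -5.63 to -3.56, and 0 when only the groups compared were fitted. It was 1, against 0, for low oxygen in NaCl with quality weights, for low oxygen in lactate with DESeq2 and with the replicate block and hypoxia-lactate 3 left out (Plau -2.64, adjusted p = 0.0297), and for lactate in low oxygen with DESeq2. Plau was negative in all comparisons and alternatives. With the replicate block Plau was -4.32 in hypoxia-lactate against normoxia-NaCl and -1.24 for low oxygen in NaCl. Pairing by library number is an assumption there too. The block on its own changed no member's call.

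Uncalled signs turned; the cause was not tested. With quality weights Plaur was -0.07 (low oxygen in NaCl), -0.39 (low oxygen in lactate), -0.72 (lactate in low oxygen), -0.79 (both conditions) and -0.32 (interaction), and Serpinb2 0.22 (low oxygen in NaCl), 0.03 (lactate in normoxia), 0.18 (both) and -0.07 (interaction). Without both outlying libraries Plaur was -0.50 (low oxygen in lactate), -0.92 (lactate in low oxygen), -0.82 (both) and -0.60 (interaction), and Serpinb2 0.24 (lactate in low oxygen) and 0.10 (both). With the replicate block and hypoxia-lactate 3 left out Plaur was -0.38, -0.73, -0.59 and -0.52 in the same 4 comparisons. With upper-quartile factors, which moved the median of all genes to -0.15, -0.13 and -0.16, Plaur was -0.23 (lactate in low oxygen), -0.05 (both) and -0.01 (interaction). For lactate in low oxygen it was -0.04 with a mean of at least 5 CPM and -0.12 with the replicate block, which gave -0.01 for both conditions. Leaving out each library gave Plaur ranges of -0.16 to 0.39 (low oxygen in NaCl), -0.50 to 0.85 (low oxygen in lactate), -0.92 to 0.44 (lactate in low oxygen), -0.74 to 0.60 (both) and -0.68 to 0.68 (interaction), and Serpinb2 ranges of -0.96 to 0.13, -0.78 to 0.51, -1.03 to 0.63, -1.25 to 0.04 and -0.56 to 1.11.

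Over all genes the 235 calls of hypoxia-lactate against normoxia-NaCl became 1035 without hypoxia-lactate 3, 912 without both outlying libraries, 1450 with DESeq2, 1078 with quality weights and 6 when only those groups were fitted. Depth limits Plat and Serpinb2: 3 reads correspond to 0.0586 to 0.178 CPM per library.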

Other observations

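Vwf, which encodes von Willebrand factor of endothelial cells and platelets, lay between 129 and 280 CPM in the 12 libraries. Of the other endothelial markers listed, Kdr lay between 6.94 and 16.1 CPM, Pecam1 reached 2.44 CPM, Cdh5 1.17 CPM and Tek 0.06 CPM at most, and Emcn was at 0 in every library. Of the fibroblast markers, Col1a1 lay between 11.0 and 62.1 CPM, Col1a2 between 12.7 and 46.5 CPM, Pdgfrb between 3.82 and 9.18 CPM, Postn between 1.90 and 9.79 CPM and Col3a1 between 1.07 and 6.09 CPM, while Pdgfra reached 1.58 CPM, Dcn 0.53 CPM and Lum 0.02 CPM at most. Of the osteoclast-type markers, Ctsk, a cysteine protease, averaged 355 CPM in hypoxia-lactate, 144 CPM in hypoxia-NaCl, 106 CPM in normoxia-lactate and 70.5 CPM in normoxia-NaCl (means of 3 libraries each). Nfatc1 lay between 77.8 and 120 CPM, Acp5 between 23.2 and 70.7 CPM, Dcstamp between 6.82 and 74.7 CPM and Ocstamp between 0.237 and 2.37 CPM, and Calcr, the calcitonin receptor, was at 0 in every library. The source of these transcripts was not tested.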
